A study of Danio rerio with 340 samples.

Results

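The larvae described here were the PET larvae exposed to the low doses of valproic acid, 8 at 1 µM and 8 at 5 µM, each set against the 8 PET larvae kept at 0 µM in the same experiment. They were chosen by strain, compound and dose as the sample titles give them, and they make up 16 of the 340 larvae of the series. With their controls there were 24. The whole valproic acid experiment held 160 larvae. Of these, the 8 PET larvae at 20 µM and the 96 larvae of the strains AB, TU, RW and WIK at 0, 1 and 5 µM were used for comparison. The larvae of those strains at 20 µM, 8 per strain, served to choose genes and in a fit of all 160 larvae. From outside this experiment, PET controls of the hydroxyurea (7 larvae) and warfarin (6 larvae) experiments are cited for their ribosomal protein share. PET is a stock from a pet store, kept beside these 4 laboratory strains of zebrafish. Each sample was the RNA of a single whole larva taken at 5 days post-fertilization (dpf). Embryos without visible defects had been placed in the compound at 5 to 6 hours post-fertilization and left there with no change of medium. The labels name no mutation, transgene or further agent in any group. The sources used here do not say which vehicle the larvae at 0 µM received. A single biological replicate is stated for each strain and dose. Therefore the 8 larvae of a group share an exposure, and strain and clutch cannot be told apart. Every p-value below measures the spread between larvae of that exposure only.

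Valproic acid is an antiepileptic drug that inhibits class I and II histone deacetylases, raises GABA levels, and interferes with the mitochondrial breakdown of fatty acids, and it is a known teratogen. At 5 dpf a zebrafish larva has a working pancreas, liver, gut, retina and skeletal muscle. The acinar cells of the exocrine pancreas fill most of that organ and put a large part of their mRNA into a few secreted enzymes. In RNA from a whole larva the trypsins, elastases, carboxypeptidases, lipases and amylase report on this tissue. In such bulk RNA, fewer cells of a type and less RNA per cell cannot be told apart.

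PET larvae at both low doses had shallower libraries of another composition than their controls. The lowest, median and highest total counts were 1176300, 1557110 and 2020660 at 0 µM, 497773, 960618 and 1212900 at 1 µM, and 364431, 727936 and 1997690 at 5 µM. At each low dose 6 of 8 larvae lay below every control. The log10 totals differed from those at 0 µM (exact permutation test, two-sided, p = 0.000466 and 0.00808 at 1 and 5 µM, adjusted over 3 comparisons 0.0014 and 0.0121). The share of counts in the cytosolic ribosomal protein genes ran from 8.22% through a median of 14.2% to 14.8% at 0 µM, from 6.92% through 7.69% to 10.7% at 1 µM, and from 4.04% through 8.11% to 10.0% at 5 µM. It was lower at 1 µM (exact permutation p = 0.000466, adjusted 0.0014) and at 5 µM (exact permutation p = 0.000932, adjusted 0.0014). By count, 6 and 4 larvae lay below every control. Between 5 µM and 1 µM the exact test gave p = 0.70. Control larvae 6 and 8, at 8.22% and 11.14%, lay below the other 6 controls, the lowest of which was at 13.6%. Among the exposed larvae 1 µM larva 4 was the highest at 10.7%, between control larvae 6 and 8. The median share in PET controls was 16.8% in the hydroxyurea experiment and 18.1% in the warfarin experiment. The share of the mitochondrial genome had medians of 6.23%, 3.60% and 4.21% at 0, 1 and 5 µM. It was also lower at both doses (exact permutation p = 0.0157 and 0.00311, adjusted 0.0235 and 0.00932). On the first principal component, which held 17.5% of the variance, the 24 larvae were spread in the order of their ribosomal protein share (r = -0.957 over 24 larvae, which share this library property, as a description). Depth and ribosomal protein share thus differed between exposed and control larvae. No difference was found between 5 and 1 µM (exact permutation p = 0.55 for log10 totals and 0.70 for the share). Their part in the results below was not tested beyond the covariate fits given there.

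**Figure D1:**
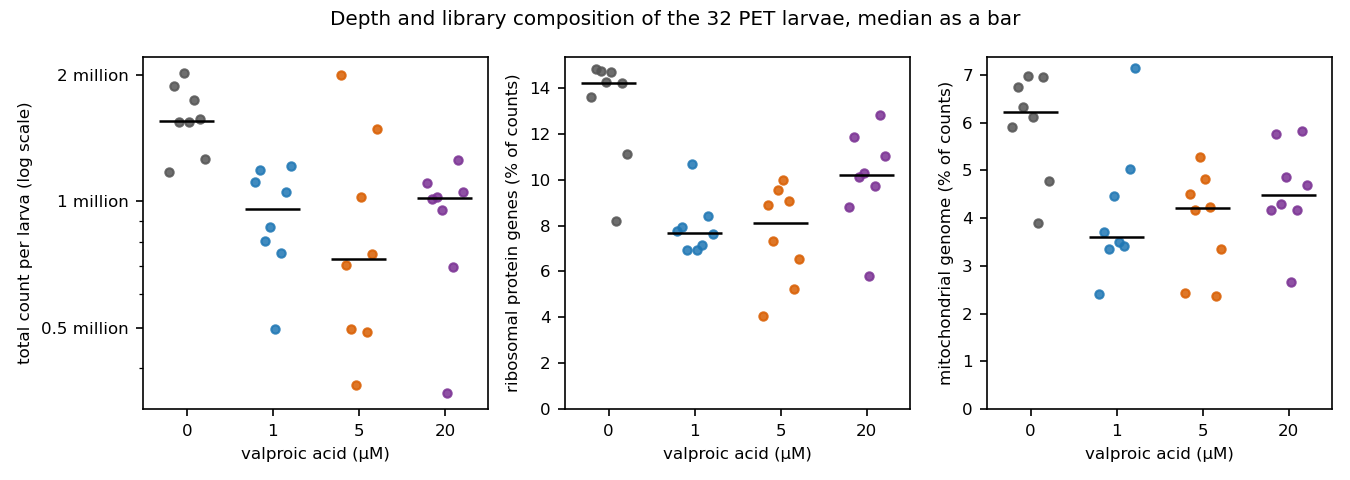
Total count on a log axis (left), percent of counts in cytosolic ribosomal protein genes (middle) and percent of counts in the mitochondrial genome (right) against the dose of valproic acid in µM, with a point for each PET larva and a bar at the median of 8. The ribosomal protein share had a median of 14.2% at 0 µM, and all but 1 of the 16 larvae at 1 and 5 µM lay at or below 10.0%.

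Of 12142 genes tested with edgeR's quasi-likelihood test, 1281 passed an adjusted p of 0.05 at 1 µM (10.6% of those tested), 465 higher (3.83%) and 816 lower (6.72%). At 5 µM 971 genes passed (8% of those tested), 246 higher (2.03%) and 725 lower (5.97%). The mean of both low doses against 0 µM called 1889 genes (15.6%). At 1 µM 454 of the genes that fell and 135 of those that rose changed by at least 1 on the log2 scale. At 5 µM these numbers were 479 and 78. Scaled by library totals alone, without the TMM factors that correct for composition, the split turned, with 1185 genes higher and 424 lower at 1 µM and 1443 higher and 435 lower at 5 µM. That scaling moved the median log2 fold change of all genes by 0.25 and 0.30. Changes below are therefore relative to the bulk of the genes. Complete separation was rare: at 1 µM all 8 larvae lay below every control for 51 genes (0.42%) and above for 34 (0.28%), and at 5 µM for 70 (0.577%) and 4 (0.0329%). The 1 µM and 5 µM comparisons share the 8 control larvae, so their values are set side by side and no overlap between them is read as a result.

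The enzymes of the exocrine pancreas were lower at both doses, and lower at 5 µM than at 1 µM in value. Of 38 genes written in the list 30 were tested. Of these 26 fell at 1 µM and 28 at 5 µM and none rose, while 6.72% and 5.97% of all genes fell. All 30 had a log2 fold change below 0 at both doses. The median was -1.22 at 1 µM and -1.79 at 5 µM, beside 0.00 and 0.02 over all genes. Together the enzymes took 2.14% to 3.93% of the counts of a control larva with a median of 3.65%, 1.51% to 2.67% with a median of 1.77% at 1 µM, and 0.675% to 1.64% with a median of 1.22% at 5 µM. Hence the larvae at 5 µM did not overlap with the controls in this share, while those at 1 µM overlapped through control larva 6 at 2.14% and control larva 8 at 2.66%. The 8 larvae at 20 µM, from the same strain and experiment, held 0.185% to 0.357%.

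The carboxypeptidase cpb1, which removes basic residues from the ends of digested peptides, had its lowest, median and highest level at 453, 695 and 1020 CPM (counts per 1000000 counts, scaled by TMM) at 0 µM, 223, 253 and 401 at 1 µM, and 75.7, 139 and 246 at 5 µM. No larva at either dose reached the lowest control. Its log2 fold change was -1.33 ± 0.24 (SE, n = 8 per group, edgeR adjusted p = 0.000433) at 1 µM and -2.29 ± 0.25 (adjusted p = 3.99e-08) at 5 µM. At 20 µM it ranged from 18.8 to 69.3 CPM. The bile salt-stimulated lipase cel.1 went from 460, 601 and 804 CPM at 0 µM to 178, 243 and 456 at 1 µM and 70.8, 147 and 231 at 5 µM, again without overlap with the controls at either dose. It fell by 1.14 ± 0.22 at 1 µM (adjusted p = 0.000854) and by 2.06 ± 0.23 at 5 µM (adjusted p = 3.99e-08) on the log2 scale. Phospholipase pla2g1b, which splits dietary phospholipids, stood at 84.4, 274 and 313 CPM in controls, 69.9, 125 and 147 at 1 µM and 40.6, 61.8 and 102 at 5 µM. A single low control made it overlap with the exposed groups. It fell by 1.06 ± 0.23 at 1 µM (adjusted p = 0.00242) and by 1.98 ± 0.24 at 5 µM (adjusted p = 2.88e-07).

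Trypsin cleaves proteins after basic residues and activates the other zymogens of the pancreas. The trypsin gene prss59.2 had 4390, 8494 and 9457 CPM at 0 µM, 2548, 3403 and 7039 at 1 µM, and 1115, 2411 and 3594 at 5 µM. All larvae at 5 µM, but not all at 1 µM, lay below the lowest control. The log2 fold changes were -1.01 ± 0.23 (adjusted p = 0.00352) and -1.67 ± 0.23 (adjusted p = 3.05e-06). Elastase cela1.6 had 2679, 4812 and 6433 CPM at 0 µM, 2187, 2724 and 4601 at 1 µM, and 797, 1911 and 2752 at 5 µM. It was the least secure of these calls at 1 µM, at -0.69 ± 0.22 (adjusted p = 0.0357, lost in 12 of 24 fits without a larva), and fell by 1.33 ± 0.22 at 5 µM (adjusted p = 7.3e-05). Among genes of low level, the astacin-like protease c6ast3 dropped from a median of 40.4 CPM to 7.25 and 3.68 (log2 fold change -2.45 ± 0.50, adjusted p = 0.0014, and -2.93 ± 0.53, adjusted p = 0.000215). Another elastase, cela1.2, had medians of 25.9, 4.98 and 2.76 CPM, with adjusted p of 0.0215 and 0.000659. The zymogen granule protein gene sycn.3 had medians of 50.6, 7.53 and 10.8 CPM (adjusted p = 0.0014 and 0.013), the only one of these genes with a higher median at 5 µM than at 1 µM. Trypsins and elastases are families of near-identical copies, so the split of reads between their members is uncertain. Of 11 genes of the hormone-producing part of the pancreas, 1 fell at 1 µM and 2 at 5 µM, with medians of -0.29 and -0.49, beside 6.72% and 5.97% of all genes. The difference between the exocrine and endocrine lists was not tested. These were neurod1, a transcription factor of islet and neuronal cells, at both doses (-1.18 ± 0.29 and -0.90 ± 0.29, adjusted p = 0.00683 and 0.0451) and insulin, ins, at 5 µM (-1.51 ± 0.41, adjusted p = 0.0149), both picked out after their values were seen.

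**Figure D2:**
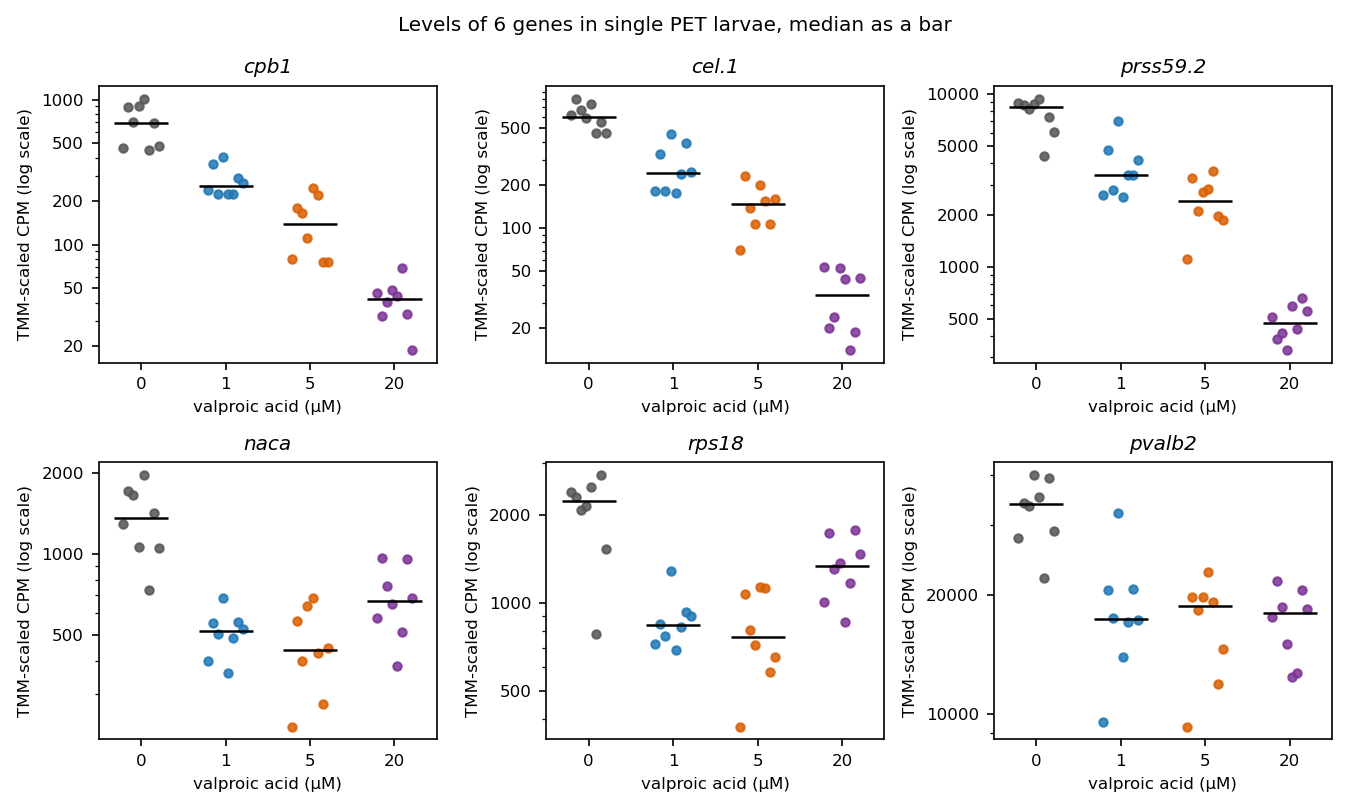
TMM-scaled CPM on a log axis against the dose of valproic acid in µM for 3 exocrine pancreas genes (cpb1, cel.1, prss59.2) and for naca, rps18 and pvalb2, with a point for each PET larva and a bar at the median of 8. The median of cpb1 was 695, 253 and 139 CPM at 0, 1 and 5 µM and 42.2 at 20 µM, whereas the median of rps18 was 2222, 838 and 762 CPM and then 1337 at 20 µM; values at 20 µM were scaled with all 32 PET larvae.

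The step from 1 to 5 µM itself passed for no gene. edgeR called 0 of 12142 genes between the 2 doses (0%), with 562 at an unadjusted p under 0.05, and DESeq2's Wald test called 0 with 680. The lower genes closest to the threshold were cel.1 (-0.92 ± 0.22), cpb1 (-0.96 ± 0.24) and pla2g1b (-0.92 ± 0.24), whose adjusted p under edgeR were 0.502, 0.502 and 0.588. Over the exocrine list 28 of 30 genes were lower at 5 µM than at 1 µM, with a median of -0.54 beside 0.00 over all genes, and none passed. The higher genes closest to the threshold were ell2, an elongation factor of RNA polymerase II, and dbi. The product of dbi binds acyl-CoA and, as diazepam binding inhibitor, the GABA-A receptor. The gene dbi had 197, 321 and 400 CPM at 0 µM, 165, 247 and 345 at 1 µM and 202, 490 and 690 at 5 µM (5 against 1 µM 0.92 ± 0.21, edgeR adjusted p = 0.321). Its groups overlapped and neither dose passed against 0 µM in this fit, which had no covariate (edgeR adjusted p = 0.288 and 0.0808).

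The ribosomal protein share of each larva was then added to the model as a covariate, an alternative chosen after seeing the data. In that fit 0 genes passed at 1 µM (582 at an unadjusted p under 0.05) and 14 at 5 µM, 8 higher and 6 lower. The 8 higher genes were atp2a1, atp5f1e, atp5mc1, uqcrc2b, cldn15la, CR749775.2, dbi and ell2. Of these ell2 rested on a 5 µM larva at 499 CPM. The 6 genes lower at 5 µM in that fit were all exocrine enzymes: cpb1 (-1.32, edgeR adjusted p = 0.00476), the astacin-like c6ast4 (-1.28, adjusted p = 0.0107), cel.1 (-1.21, adjusted p = 0.0104), the amylase amy2a (-1.20, adjusted p = 0.0493), the trypsin prss59.1 (-0.81, adjusted p = 0.0307) and the chymotrypsinogen ctrb1 (-0.76, adjusted p = 0.0214). The exocrine list kept a median of -0.78 at 5 µM, with 29 of 30 genes lower, and of -0.31 at 1 µM, with 27 of 30 lower. In the same fit 15 genes passed between 5 and 1 µM, 5 higher and 10 lower. The higher ones included dbi (0.97, edgeR adjusted p = 0.00101). Among the lower ones were 7 exocrine genes, including cpb1 at -0.88, cel.1 at -0.79 and prss1 at -0.74. Single larvae of like ribosomal protein share were also set side by side. The 4 larvae at 5 µM with a ribosomal protein share of 8.89% to 10.0% held 1.23% to 1.64% of counts in exocrine enzymes, against 2.14% in control larva 6, whose ribosomal protein share was 8.22%. Control larva 8 and 1 µM larva 4, at ribosomal protein shares of 11.14% and 10.7%, held 2.66% and 2.67% in exocrine enzymes. Larva 4 had the highest exocrine share at 1 µM, where the median of 8 larvae was 1.77%. The 1 µM larvae 1, 2 and 7, at ribosomal protein shares of 7.75%, 7.93% and 8.40%, were near control larva 6 but were not paired with it. Each of the pairings rests on a single control larva, and no difference between them was tested.

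**Figure D3:**
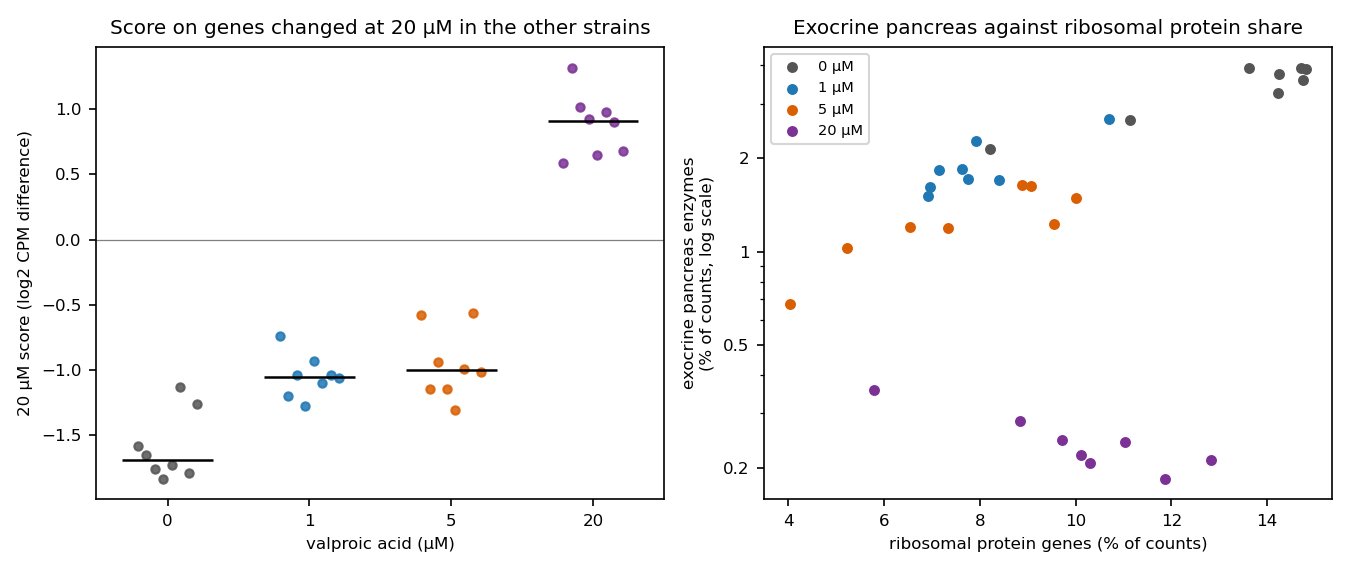
Left, the 20 µM score of each PET larva (mean log2 CPM of genes that rose at 20 µM in the other strains minus that of genes that fell) against dose in µM, with a bar at the median of 8; right, percent of counts in exocrine pancreas enzymes on a log axis against percent of counts in ribosomal protein genes, a point per larva coloured by dose. Scores at 1 and 5 µM (-1.31 to -0.56) lay between those at 0 µM (-1.84 to -1.14) and at 20 µM (0.59 to 1.32) with overlap at the lower end only. The genes of the score had passed a filter that included the larvae at 20 µM, so the distance to these is not read as a result. At these low doses the score moved through the genes that fell, as the mean of the genes that rose was not raised (3.83 to 4.25, against 4.07 to 4.35 at 0 µM). Larvae at 20 µM had the lowest exocrine share (0.185% to 0.357%) at ribosomal protein shares of 5.80% to 12.8%.

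The genes of the translation machinery were lower at both doses to nearly the same extent. Of 81 cytosolic ribosomal protein genes tested, 70 fell at 1 µM and 75 at 5 µM and none rose, while 6.72% and 5.97% of all genes fell. The medians of the list were -1.02 and -1.09. Their median between 5 and 1 µM was -0.05. This list is the share described above and is no independent observation of it. The small-subunit gene rps18 had 779, 2222 and 2737 CPM at 0 µM, 687, 838 and 1284 at 1 µM and 377, 762 and 1128 at 5 µM. It fell by 1.24 ± 0.22 and 1.35 ± 0.22 (adjusted p = 0.000436 and 6.78e-05). The 2 most abundant members, rpl38 and rps24, had medians of 8857, 3210 and 3505 CPM and of 4659, 2002 and 2234 CPM, and both passed at both doses. The gene naca, outside the list, encodes a subunit of the complex that binds nascent chains at the ribosome. It separated fully, with 734, 1353 and 1959 CPM at 0 µM, 361, 514 and 683 at 1 µM, and 228, 438 and 683 at 5 µM. Its log2 fold changes were -1.42 ± 0.22 (adjusted p = 0.000141) and -1.57 ± 0.22 (adjusted p = 3.05e-06). At 20 µM the PET larvae were closer to their controls in this group than at the low doses, in that rps18 had a median of 1337 CPM and naca of 668 CPM there.

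Of the 13 protein-coding genes of the mitochondrial genome, 8 fell at 1 µM and 6 at 5 µM, with medians of -0.79 and -0.73. Over all genes 6.72% and 5.97% fell. Cytochrome c oxidase subunit gene mt-co2 had 7685, 14725 and 19488 CPM at 0 µM, 5375, 8362 and 10289 at 1 µM and 3608, 9197 and 11111 at 5 µM. The groups overlapped at both doses, with log2 fold changes of -0.84 ± 0.22 (adjusted p = 0.0114) and -0.87 ± 0.22 (adjusted p = 0.00925). Its neighbour in the complex, mt-co1, had a median of 3562 CPM at 1 µM against 9228 at 0 µM. However, 1 µM larva 8 stood alone at 33516, and the gene did not pass there (-0.19 ± 0.36, adjusted p = 0.774). At 5 µM it passed at -1.18 ± 0.37 (adjusted p = 0.0387, lost in 11 of 24 fits without a larva). Nuclear genes of mitochondrial fatty acid oxidation were lower in 6 of 28 at 1 µM and 5 of 28 at 5 µM, with medians of -0.41 and -0.39. Among the 5 at 5 µM, named after their values were seen, were the very long-chain acyl-CoA dehydrogenase acadvl (-0.93 ± 0.26, adjusted p = 0.0192), hadh (-1.06 ± 0.28, adjusted p = 0.0117), echs1, eci2 and pdk2b.

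Genes of skeletal muscle and the lens were lower at both doses. Over all genes 6.72% fell at 1 µM and 5.97% at 5 µM. Of 51 fast muscle genes 25 fell and 1 rose at 1 µM and 24 fell at 5 µM, with medians of -0.79 and -0.65. The calcium buffer gene pvalb2, among the most abundant transcripts of the larva, had 22097, 33766 and 39993 CPM at 0 µM, 9565, 17392 and 32061 at 1 µM and 9327, 18759 and 22827 at 5 µM. It fell by 0.81 ± 0.22 and 0.94 ± 0.22 (adjusted p = 0.0156 and 0.00509). The calcium pump gene atp2a1, expressed in the same fibres, had medians of 6766, 6138 and 8262 CPM. It did not pass without the covariate above (adjusted p = 0.64 and 0.851). Of 30 lens genes 13 fell at 1 µM and 19 at 5 µM, with medians of -0.64 and -0.86. The crystallin gene crygn2 had 767, 1527 and 1930 CPM at 0 µM, 531, 768 and 1434 at 1 µM and 258, 810 and 933 at 5 µM. Its log2 fold changes were -0.84 ± 0.24 (adjusted p = 0.0172) and -1.12 ± 0.24 (adjusted p = 0.00157). Crystallins, like the globins below, are families of similar copies whose reads the counting could have divided.

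In the retina, 14 of 37 opsin and phototransduction genes fell at 1 µM and 13 at 5 µM, beside 6.72% and 5.97% of all genes. Cone arrestin arr3b, which shuts off activated opsin, had 223, 410 and 623 CPM at 0 µM, 95.9, 183 and 311 at 1 µM and 107, 137 and 239 at 5 µM (-1.23 ± 0.23, adjusted p = 0.000674, and -1.48 ± 0.23, adjusted p = 3.61e-05). The cone phosphodiesterase subunit gene pde6ha had medians of 1552, 641 and 691 CPM and passed at both doses (adjusted p = 0.00193 and 0.000615). The red cone opsin opn1lw2 had medians of 2319, 2132 and 2434 CPM and did not pass (adjusted p = 0.663 and 0.903). Neuronal genes were divided in the same way. The tubulin-binding protein gene stmn1b had 324, 586 and 816 CPM at 0 µM, 174, 227 and 373 at 1 µM and 148, 257 and 366 at 5 µM (-1.11 ± 0.21, adjusted p = 0.000854, and -1.13 ± 0.21, adjusted p = 0.000362). The neuronal RNA-binding protein gene elavl4 had medians of 196, 167 and 181 CPM with log2 fold changes of -0.13 ± 0.18 at both doses (adjusted p = 0.671 and 0.702). Over the list of neurons and synapses 7 of 25 fell at 1 µM and 5 of 25 at 5 µM, beside the same shares of all genes.

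Blood, skin, gut and liver lists also held decreases, beside 6.72% and 5.97% of all genes. Of 8 embryonic globins 6 fell at 1 µM and 4 at 5 µM, with medians of -1.03 and -0.68. None of 10 larval globin, erythroid and heme genes passed in edgeR at either dose (2 and 3 at an unadjusted p under 0.05, 0 and 1 called by DESeq2), and their medians were -0.35 and -0.17. The alpha-type globin gene hbae1.3 had 468, 905 and 1249 CPM at 0 µM, 226, 402 and 538 at 1 µM and 227, 417 and 903 at 5 µM (-1.18 ± 0.24, adjusted p = 0.00118, and -0.93 ± 0.24, adjusted p = 0.00908). The erythrocyte carbonic anhydrase cahz had medians of 101, 92.7 and 105 CPM and did not pass (adjusted p = 0.635 and 0.818). Of 34 epidermal genes 9 fell at each dose, with medians of -0.42 and -0.57, all of them keratin genes or cyt1 and cyt1l. Of 24 intestinal genes 10 fell at 1 µM, while at 5 µM 7 fell and agr2, a disulfide isomerase of mucus-secreting cells, rose (0.84 ± 0.22, adjusted p = 0.013, named after its value was seen). The medians of that list were -0.67 and -0.40. The chitinase gene chia.2 had 875, 1974 and 2708 CPM at 0 µM, 374, 639 and 1476 at 1 µM and 295, 628 and 1210 at 5 µM, with overlap at both doses (-1.34 ± 0.27, adjusted p = 0.00118, and -1.47 ± 0.27, adjusted p = 0.000247). Of 37 liver genes 7 fell at each dose, with medians of -0.45 and -0.31, and 21 and 15 had an unadjusted p under 0.05 in edgeR. Its 2 most abundant members, apoa1b (medians 5141, 3527 and 4171 CPM) and apoa2 (3125, 2248 and 2887 CPM), passed at neither dose. The apolipoprotein gene apoa4b.1, which the intestinal list also holds, did not pass (medians 1203, 894 and 991 CPM, adjusted p = 0.133 and 0.214). Growth hormone, gh1, a product of the pituitary, had 27.0, 54.1 and 124 CPM at 0 µM, 8.36, 15.0 and 38.8 at 1 µM and 4.07, 21.5 and 91.3 at 5 µM. It passed at 1 µM only (-1.69 ± 0.41, adjusted p = 0.00646, and -1.11 ± 0.41, adjusted p = 0.0791). The difference between the doses did not pass either (0.57 ± 0.43, adjusted p = 0.999).

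The list of histone deacetylases and sirtuins and the list of GABA genes held few or no calls. Over all genes 10.6% were called at 1 µM and 8% at 5 µM. In lists this short such counts are near that share, and they are not read as a result about targets of the drug. None of 9 histone deacetylases and sirtuins tested passed at either dose under edgeR or DESeq2, and 0 had an unadjusted p under 0.05 in edgeR. Their median log2 fold changes were -0.09 and 0.00. Of 19 genes written in that list the other 10 were not tested. Of 14 genes of GABA synthesis, transport and receptors, gphna, which anchors inhibitory receptors at the synapse, rose at 1 µM (0.97 ± 0.24, adjusted p = 0.0066, named after its value was seen). It was the only call of that list at 1 µM in edgeR, and none passed at 5 µM. In edgeR 5 genes of the list at 1 µM and 4 at 5 µM had an unadjusted p under 0.05, and DESeq2 called 3 and 1. The glutamate decarboxylase gene gad1b, which makes GABA, had 166, 193 and 210 CPM at 0 µM, 163, 202 and 258 at 1 µM and 133, 191 and 246 at 5 µM (0.09 ± 0.17 and 0.00 ± 0.17, adjusted p = 0.778 and 0.997). The 4 hatching gland genes tested did not pass in edgeR or DESeq2 (1 and 0 at an unadjusted p under 0.05 in edgeR). The hatching enzyme he1.1 had medians of 19.9, 17.0 and 19.4 CPM at 0, 1 and 5 µM against 192 CPM at 20 µM, where larvae ranged from 19.3 to 978. The gene aep1, which an earlier analysis of these data had found at 1 µM over the strains together, did not pass in PET (medians of 112, 135 and 142 CPM, adjusted p = 0.518 and 0.414). The gene s100a1 had too few counts in these larvae to be tested. The metalloprotease inhibitor gene timp4.3 fell by 2.74 ± 0.72 (adjusted p = 0.0116) and 2.45 ± 0.72 (adjusted p = 0.0262), from 0 to 51.9 CPM with a median of 32.5 in controls to medians of 2.23 and 3.69. A larva at 0 counts was present in each of the 3 groups. A count of 0 allows up to 3 counts, which stand for at most 2.55 CPM at 0 µM, 6.03 at 1 µM and 8.23 at 5 µM.

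Stress lists were mixed, and their few calls are named after their values were seen. Of 23 genes of endoplasmic reticulum stress, atf4a and chac1 fell at both doses and dnajc3a at 1 µM, whereas atf6 rose at 5 µM. The transcription factor atf4a drives the response to amino acid shortage and unfolded protein, and its log2 fold changes were -1.34 ± 0.30 and -1.01 ± 0.30 (adjusted p = 0.00374 and 0.0309). Its target chac1, a glutathione-degrading enzyme, had log2 fold changes of -0.91 ± 0.24 (adjusted p = 0.0131) and -1.81 ± 0.26 (adjusted p = 4.45e-06). The sensor gene atf6 had 219, 271 and 324 CPM at 0 µM, 311, 365 and 395 at 1 µM and 264, 414 and 598 at 5 µM. It passed at 5 µM only (0.42 ± 0.18, adjusted p = 0.115, and 0.56 ± 0.18, adjusted p = 0.0405, the latter lost in 10 of 24 fits without a larva). The constitutive chaperone genes hspa8 and hsp90ab1 fell at both doses, hspa8 from a median of 1793 CPM to 735 and 949. The other 15 of 17 heat shock genes tested did not pass. Of 16 p53 targets the single call at each dose was a decrease of the ribosomal protein-like gene rps27l, which the ribosomal protein list also holds, a share near the 6.72% and 5.97% of all genes that fell. Of 40 cell cycle genes 2 rose and 1 fell at 1 µM and 1 rose at 5 µM, near the 3.83% and 2.03% of all genes that rose. The cyclin gene ccna2, which drives S phase and entry into mitosis, rose at both doses (0.82 ± 0.25 and 0.91 ± 0.25, adjusted p = 0.0264 and 0.0147). At 1 µM the replicative helicase gene mcm2 rose (1.28 ± 0.36, adjusted p = 0.0193) and the chromatin protein gene hmgb2a fell (-0.98 ± 0.21, adjusted p = 0.00262). Of 22 genes of neutrophils and macrophages the single call at each dose was cpa5, a carboxypeptidase that also stands in the exocrine list.

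Calls in the remaining lists are likewise named after their values were seen. Over all genes 3.83% rose and 6.72% fell at 1 µM, and 2.03% rose and 5.97% fell at 5 µM. The single calls of the heart list, of the cytochrome P450 list at 1 µM and of the cartilage list are near these shares. They are not read as results about those lists. Myelin basic protein compacts the sheath around axons, and of 11 myelin genes mbpb and plp1b fell at 1 µM, joined by mbpa at 5 µM (-0.98 ± 0.31, adjusted p = 0.0397). The list of 28 immediate early genes also held npas4l, which is not established as such a gene. It rose at both doses (0.84 ± 0.25, adjusted p = 0.0243, and 0.82 ± 0.25, adjusted p = 0.0332). At 5 µM gadd45ba (-1.77 ± 0.36, adjusted p = 0.000987) and ier5 (-1.29 ± 0.33, adjusted p = 0.00908) of that list fell. Among 20 genes of the Nrf2 response to oxidants, the iron store ferritin fth1a had 497, 808 and 921 CPM at 0 µM, 236, 411 and 575 at 1 µM and 169, 448 and 591 at 5 µM (-0.90 ± 0.22, adjusted p = 0.00773, and -0.94 ± 0.22, adjusted p = 0.00541). The cystine transporter gene slc7a11 of the same list rose at 1 µM (0.53 ± 0.17, adjusted p = 0.0424), and heme oxygenase hmox1a (-1.74 ± 0.55, adjusted p = 0.0405) and sqstm1 fell at 5 µM. Of 24 cytochrome P450 genes and their regulators cyp2n13 fell at both doses (-1.04 ± 0.33, adjusted p = 0.0377, and -1.37 ± 0.34, adjusted p = 0.0078), with cyp3c3 and cyp2ad2 at 5 µM only, of which cyp2ad2 lost the call in 10 of 24 fits without a larva. Of 22 histone and chromatin protein genes 7 fell at 1 µM and 3 at 5 µM, with medians of -0.26 and -0.30. The linker histone gene h1-10 and the nucleosome- and DNA-binding genes hmgb3a and hmgn6 fell at both doses, hmgb3a by 0.82 ± 0.19 and 0.78 ± 0.19 (adjusted p = 0.00411 and 0.00654). The other 4 at 1 µM were h3f3b.1, h3f3d, hist1h4l and hmgn7. Of 16 heart genes the myosin light chain myl7 fell at both doses (-1.12 ± 0.34, adjusted p = 0.0281, and -1.05 ± 0.34, adjusted p = 0.0486). Cartilage and bone held 1 increase of 30 at 1 µM, the proteoglycan epyc (0.73 ± 0.25, adjusted p = 0.0451), and no call at 5 µM in edgeR or DESeq2 (2 at an unadjusted p under 0.05). For neural progenitors no gene of 20 passed in either tool, with 1 and 4 at an unadjusted p under 0.05 in edgeR.

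**Figure D4:**
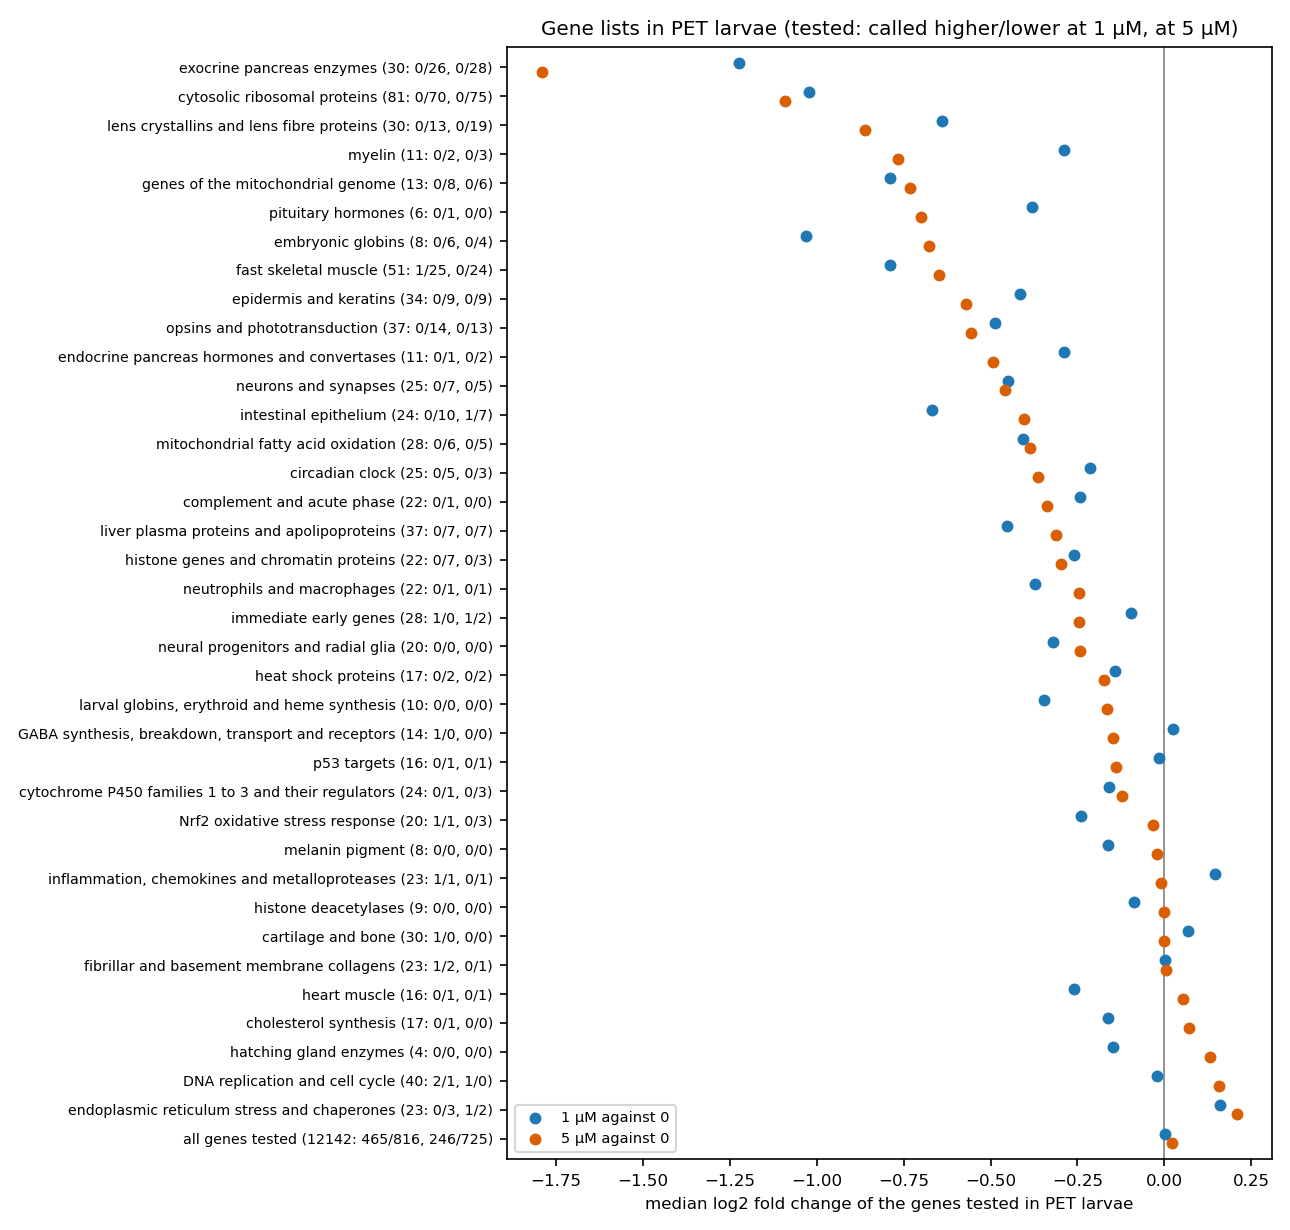
Median log2 fold change of the tested genes of each list at 1 µM (blue) and 5 µM (orange) against 0 µM in PET larvae, with the number tested and the numbers called higher and lower at each dose in the row labels, and all genes tested as the bottom row. The exocrine pancreas list had the lowest median at both doses (-1.22 and -1.79), the ribosomal protein list was at -1.02 and -1.09, and histone deacetylases were at -0.09 and 0.00.

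Apart from tissue lists, the largest decreases were found in genes of low to moderate level. The transcription factor gene cebpg, a partner of ATF4 in the response to amino acid shortage, had 53.9, 66.4 and 115 CPM at 0 µM, 8.36, 17.8 and 33.2 at 1 µM and 0, 14.7 and 43.6 at 5 µM. All 16 exposed larvae lay below the lowest control. The log2 fold changes were -2.00 ± 0.36 (adjusted p = 0.000446) and -2.06 ± 0.37 (adjusted p = 0.000172). The clock gene cry1b, a light-regulated repressor, had 14.6, 37.7 and 76.6 CPM at 0 µM, 0.836, 7.67 and 15.17 at 1 µM and 0, 7.04 and 11.6 at 5 µM (-2.37 ± 0.46, adjusted p = 0.000854, and -2.63 ± 0.48, adjusted p = 0.00021). The clock list as a whole held 5 decreases of 25 at 1 µM and 3 at 5 µM, beside 6.72% and 5.97% of all genes. The time of day at which each larva was taken is not given in the sources used here. The splicing-related gene rbm48 had medians of 18.2, 3.71 and 3.15 CPM with no overlap at either dose (-2.30 ± 0.57, adjusted p = 0.00728, and -2.73 ± 0.60, adjusted p = 0.00228). For other genes the decrease was called at a single dose. The proteoglycan gene tsku had medians of 41.3, 8.68 and 11.7 CPM. Its log2 fold change was -2.12 ± 0.43 at 1 µM (adjusted p = 0.00129) and -0.95 ± 0.41 at 5 µM (adjusted p = 0.141), where 1 larva reached 71.2 CPM. Likewise ccdc59, COX7A2 and sarnp passed at 1 µM only and nr5a5, fthl28 and atl1 at 5 µM only. Of these the nuclear receptor gene nr5a5 had 6.09, 16.9 and 37.5 CPM at 0 µM, 0, 8.01 and 15.5 at 1 µM and 0, 0.796 and 6.10 at 5 µM (5 µM -3.55 ± 0.69, adjusted p = 0.000468). A further transcript among the 8 largest decreases at 5 µM, NC-002333.11, carries only a record number and was counted here with the mitochondrial genome. It had 131, 345 and 592 CPM at 0 µM, 35.1, 79.5 and 153 at 1 µM and 20.0, 50.4 and 83.0 at 5 µM. It was called lower at both doses, lost in 0 of 24 fits without a larva, and all larvae at 5 µM lay below the lowest control.

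Increases were fewer and mostly of low level. The muscle protein gene xirp2a, which lies at the cell junctions of striated muscle, had 9.33, 16.0 and 36.7 CPM at 0 µM, 25.1, 47.2 and 63.4 at 1 µM and 18.3, 33.4 and 52.8 at 5 µM (1.37 ± 0.30, adjusted p = 0.00306, and 0.95 ± 0.31, adjusted p = 0.0467, lost at 5 µM in 13 of 24 fits without a larva). The endoplasmic reticulum gene cnpy2 had 7.81, 10.8 and 25.4 CPM, 16.3, 37.3 and 62.5 CPM, and 8.30, 31.2 and 50.6 CPM at 0, 1 and 5 µM (1.62 ± 0.35, adjusted p = 0.00235, and 1.28 ± 0.35, adjusted p = 0.016). The ubiquitin ligase gene pdzrn3b had 18.9, 27.0 and 57.5 CPM at 0 µM, 50.5, 66.5 and 151 at 1 µM and 16.6, 68.1 and 107 at 5 µM (1.37 ± 0.28, adjusted p = 0.00159, and 1.11 ± 0.28, adjusted p = 0.0096). In each of these 3 the ranges overlapped with the controls at both doses. The signalling ligand gdf5, known from joint formation, had medians of 7.50, 28.0 and 6.77 CPM and passed at 1 µM only (2.07 ± 0.64, adjusted p = 0.0304, against 0.73 ± 0.64, adjusted p = 0.506). The largest increase at 5 µM, ell2 at 3.03 ± 0.71 (adjusted p = 0.00467), rested on 5 µM larva 5 at 499 CPM. The median at 5 µM was 8.47 CPM against 9.04 at 0 µM, and without that larva the log2 fold change was 0.31. Of the 8 largest increases at 1 µM gpat2, an acyltransferase of glycerolipid synthesis, was at 2.24 ± 0.74 (adjusted p = 0.0425, lost in 10 of 24 fits without a larva). At 5 µM hspa12b, a distant member of the Hsp70 family, was at 2.08 ± 0.58 (adjusted p = 0.0178) and the cadherin gene cdh26.2 at 1.69 ± 0.52 (adjusted p = 0.0366, lost in 7 of 24 fits). Most of the rest have only clone-based names.

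The response of PET was then compared with the mean response of AB, TU, RW and WIK in a fit over all 5 strains. The difference between PET and the other strains passed for 1117 of 20856 genes at 1 µM (5.36%), 179 higher (0.858%) and 938 lower (4.5%) in PET. At 5 µM it passed for 765 genes (3.67%), 95 higher (0.456%) and 670 lower (3.21%). In the same fit the mean of the other 4 strains held 2 called genes at 1 µM (0.00959%) and 77 at 5 µM (0.369%). Ribosomal protein genes held the most calls of any list, with 68 of 82 lower in PET at 1 µM and 65 at 5 µM. Their median log2 fold change was -1.08 and -1.14 in PET and 0.01 and -0.12 in the others. The chaperone subunit gene naca was at -1.47 in PET and 0.01 ± 0.10 in the others at 1 µM, a difference of -1.48 ± 0.23 (adjusted p = 3.57e-05). At 5 µM the difference was -1.55 ± 0.23 (adjusted p = 9.11e-06). The decrease of cebpg was also larger in PET, by -2.08 ± 0.34 (adjusted p = 5.48e-05) and -1.99 ± 0.34 (adjusted p = 0.000172), and that of arr3b by -1.34 ± 0.26 (adjusted p = 0.000532) and -1.75 ± 0.26 (adjusted p = 9.11e-06). Among increases, xirp2a differed by 1.59 ± 0.30 at 1 µM (adjusted p = 0.000384) and cnpy2 by 1.68 ± 0.34 (adjusted p = 0.000687). In the other strains the median ribosomal protein share of the groups lay between 8.57% and 13.5%, beside 14.2%, 7.69% and 8.11% in PET. Among them TU also had a lower share at 5 µM, with medians of 11.0%, 10.7% and 8.57% at 0, 1 and 5 µM, and its median total count was 1582650 at 0 µM and 849131 at 5 µM.

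The exocrine enzymes were compared with the other strains in the same way. Of 31 tested in this fit, 9 were lower in PET than in the others at each dose, beside 4.5% and 3.21% of all genes. The medians were -1.26 and -1.85 in PET and -0.06 and -0.65 in the others, where none fell at 1 µM and 12 at 5 µM. The lipase cel.1 was at 0.02 ± 0.19 and -0.50 ± 0.19 in the other strains. Its difference did not pass at 1 µM (-1.21 ± 0.43, adjusted p = 0.0759) and passed at 5 µM (-1.61 ± 0.43, adjusted p = 0.0173). The phospholipase pla2g1b passed at both doses, by -1.35 ± 0.37 (adjusted p = 0.0164) and -1.77 ± 0.38 (adjusted p = 0.00218). The carboxypeptidase cpb1 was at -0.24 ± 0.17 and -0.98 ± 0.17 in the others. Its difference passed at 5 µM (-1.37 ± 0.38, adjusted p = 0.021) but not at 1 µM (-1.14 ± 0.37, adjusted p = 0.0506). For elastase cela1.6 it passed at neither dose (adjusted p = 0.219 and 0.123). With the ribosomal protein share as a covariate, 5 of all genes tested differed at 1 µM, 1 higher and 4 lower in PET. At 5 µM 19 differed in that fit, 15 higher and 4 lower in PET. Without control larvae 6 and 8, 1943 genes differed at 1 µM (478 higher, 1465 lower) and 1325 at 5 µM (291 higher, 1034 lower).

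**Figure D5:**
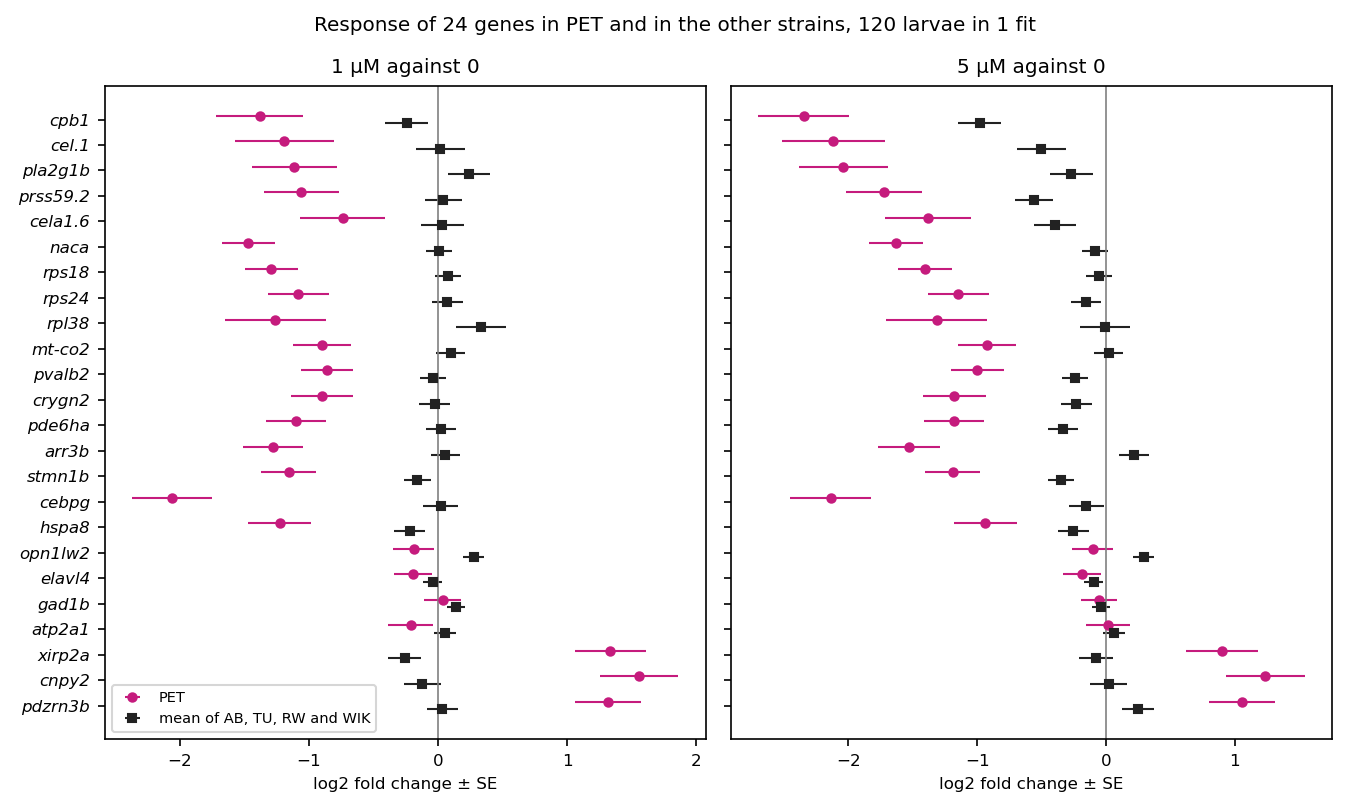
Log2 fold change ± SE of 24 genes at 1 µM (left) and 5 µM (right) against 0 µM in PET (pink circles) and as the mean of AB, TU, RW and WIK (black squares), from the fit over 5 strains. The ribosomal and exocrine genes lay below 0 in PET and near 0 in the others at 1 µM (naca -1.47 and 0.01, cel.1 -1.19 and 0.02), while opn1lw2, elavl4, gad1b and atp2a1 were near 0 in PET as well.

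The low doses in PET were also set against what 20 µM did elsewhere. In PET itself, the fit of all 32 larvae called 899 of 12940 genes at 20 µM against 0 µM (6.95%). The same fit called 1396 genes at 1 µM and 1056 at 5 µM, so the count did not rise with dose. At 20 µM 203 genes rose and 805 fell in the other 4 strains together. They were chosen at an adjusted p under 0.05 and a log2 change of at least 1 in either direction. The edgeR fit behind them held those strains at 0 and 20 µM, with strain and dose as terms. Of these genes 70 and 562 were tested in PET. Of the genes that had fallen, 7.83% were above 0 in PET at 1 µM and 9.79% at 5 µM, beside 50.1% and 51.4% of all genes. Their medians were -0.70 and -0.79, and 168 and 182 of them fell, beside 6.72% and 5.97% of all genes. Of the genes that had risen, 40% and 45.7% were above 0, with medians of -0.14 and -0.05. Of these 70 genes 1 passed in edgeR at 1 µM and 2 at 5 µM, each of them lower. With the ribosomal protein share as a covariate, 48.6% and 50.7% of the genes that had fallen were above 0. A score over 89 genes that rose and 566 that fell, the mean log2 CPM of the first minus that of the second, was -1.84, -1.69 and -1.14 (lowest, median and highest) at 0 µM, -1.28, -1.05 and -0.74 at 1 µM, and -1.31, -1.01 and -0.56 at 5 µM. At 1 µM 6 of 8 larvae and at 5 µM 5 of 8 lay above every control, and control larvae 6 and 8 were again the 2 controls nearest to them. All 16 exposed larvae lay below every larva at 20 µM, the lowest of which was at 0.59. The genes of the score had passed the filter over all PET larvae, those at 20 µM included, so more were kept than the 70 and 562 above. Some could enter through their level at 20 µM, and the distance of the score to the larvae at 20 µM is therefore not read as a result. The part of the score from the genes that rose did not move up at the low doses. It ran from 4.07 to 4.35 at 0 µM, 3.91 to 4.25 at 1 µM, 3.83 to 4.23 at 5 µM and 4.64 to 5.43 at 20 µM. The part from the genes that fell ran from 5.21 to 6.01, 4.83 to 5.53, 4.46 to 5.39 and 3.99 to 4.35 at the same doses.

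Control larvae 6 and 8 weighed on all of these counts. Without them 2229 genes passed at 1 µM and 1851 at 5 µM, and the exocrine list held 27 and 28 decreases of 30 with medians of -1.44 and -2.08. Without control larva 2 the counts were 776 and 638, and without control larva 6 alone 1879 and 1499. At 1 µM the counts also dropped without control larva 5 (838), control larva 7 (809) or 1 µM larva 1 (826), and at 5 µM without 5 µM larva 1 (588).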

How the data were processed

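Single PET larvae (8 each at 0, 1, 5 and 20 µM valproic acid) were measured by Lasy-Seq, which indexes the RNA of every larva during reverse transcription, pools it and sequences 3′ ends. The values deposited by the authors were estimated counts of 31658 genes without normalization, and 304 of the genes had no count. Reads were 150-bp pairs, the aligner and annotation are not given in the sources used here, and the submitters' processing notes name GRCz 11 and Seurat 5.1.0. Genes were used by the names in the table, and no coordinates were taken because the reference table at hand is of another assembly. The 52 values that were not whole, in 34 genes and 24 larvae, were rounded. The design had been written for counts, and the tests were kept. No molecular identifiers are described, so counting error only bounds the true error from below.

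R 4.3.3 was used. Genes were kept by filterByExpr (minimum count 10, minimum total 15), scaled by TMM and fitted in edgeR 4.0.16 with a mean for each dose over the 24 larvae at 0, 1 and 5 µM (glmQLFit and glmQLFTest), and a gene was called at a p under 0.05 after Benjamini-Hochberg adjustment over all genes tested. Values at 20 µM came from a fit of all 32 PET larvae, and strain differences from a fit over 5 strains at 0, 1 and 5 µM with the contrast of the PET effect minus the mean effect of the others. DESeq2 1.42.0, other scalings, filters, thinning to 300000 counts, covariates and larvae left out were alternatives. Fold changes are edgeR's. Levels are CPM, not divided by transcript length, since 3′ ends were counted. Total counts and shares were compared by exact permutation tests. Named genes were the 8 largest increases and decreases at each dose with a mean count of at least 10, the 5 largest called at both doses, the 2 most abundant members of each gene list, the 3 smallest p in each direction of the strain contrasts, and aep1, s100a1 and timp4.3. A few called list members were named after their values were seen, as stated with them. The members and the gene lists were chosen with earlier results of these data known. The code was tested on simulated counts. No pair of larvae had the same values (highest r of log counts 0.889).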

Additional observations from a re-analysis of the deposited data

Results flagged for a closer look

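The ribosomal protein share at 1 µM was 10.7% in larva 4, with the nearest of the other 7 larvae at 8.40%, and the gap was 0.607 of the range of the group against a limit of 0.526. Such a gap is met by chance in about 1 in 20 groups, and 15 groups were checked. In the same larva exocrine enzymes held 2.67% of the counts, the highest share at 1 µM.

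The effect of 1 µM differed between PET and the mean of AB, TU, RW and WIK for 1117 genes, and the effect of 5 µM for 765 genes, by the strain contrast within the edgeR fit. The number moved with the strain left out of the mean, at 1 µM from 364 without RW and 533 without AB to 1548 without TU, and at 5 µM from 304 and 410 to 1352.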

How the results depend on the processing

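The counts of called genes depended on the ribosomal protein share, on depth and on a few larvae. With the log2 share of ribosomal protein counts as a covariate, 0 genes passed at 1 µM and 14 at 5 µM. For the mean of the low doses 0 passed (main 1889), and for 5 against 1 µM 15 did. The strain contrast passed for 5 genes at 1 µM and for 19 at 5 µM, 15 of the latter higher in PET. That covariate also widened the median SE from 0.37 to 0.49 at 1 µM and from 0.38 to 0.54 at 5 µM. Of the named genes called at 1 µM 47 lost the call in that fit and 8 changed sign, and at 5 µM 3 remained called, 38 lost the call and 10 changed sign. At 1 µM the log2 fold change then was 0.16 for cela1.6, 0.26 for hbbe1.1, 0.23 for crygn2, 0.16 for cfd, 0.11 for sparc, 0.043 for mt-co2, 0.037 for rpl38 and 0.10 for BX908782.2. At 5 µM it was 0.30 for sycn.3, -0.19 for CR936974.1, 0.25 for hbbe1.1, 0.071 for hbae1.3, 0.028 for crygn2, 0.043 for crygm2d13, 0.17 for hspa8, 0.16 for hsp90ab1, 0.059 for mt-co2 and 0.093 for rpl38. Of the genes that rose at 20 µM in the other strains 58.6% and 64.3% were then above 0 at 1 and 5 µM, and of those that fell 48.6% and 50.7%. No named gene changed sign under the other settings, and 0 to 8 calls were lost in each among the genes still tested. With counts thinned to the lowest total of the 24 larvae, only some named genes were still tested. These were 36 of the 55 called at 1 µM and 35 of the 51 called at 5 µM, and the rest had no result at that depth. The cause of the changes in sign and calls was not tested.

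Without control larvae 6 and 8, 2229, 1851 and 2875 genes passed at 1 µM, 5 µM and their mean, and 1943 and 1325 in the strain contrasts. This setting, the covariate above and the scaling by library totals (1609 and 1878 genes) were chosen after seeing the data. The fit of 160 larvae gave 2005 and 1622 genes, and 16 for 5 against 1 µM, where including all genes gave 25. A fold change of at least 1 on the log2 scale left 589, 557 and 702 genes. The log10 total as a covariate gave 1934 genes at 1 µM and 606 and 355 in the strain contrasts, thinned counts 547 and 359, the mean without AB 533 and 410, without RW 364 and 304, and at 5 µM without TU 1352 and without larvae under 500000 counts 1266. DESeq2 called 1838 and 1416 genes. Leaving out each larva in turn gave 776 to 1879 genes at 1 µM, 588 to 1499 at 5 µM, 0 to 1 for 5 against 1 µM and 1258 (without control larva 2) to 2577 for the mean. The larva numbers only name the larvae (median r of same-numbered deviations 0.00825 over 24 pairs, 2 above 0.1, 5 of 24 larvae closest to their own number), and with the replicate block 1379, 987, 0, 1958, 1053 and 744 genes passed in the same comparisons. Depth limits genes of low level at 5 µM, where 3 counts stood for up to 8.23 CPM.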

Other observations

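A set of 4 abundant transcripts of the PET larvae, picked after their values were seen, took larger shares of the libraries at the low doses, while their median proportions to each other stayed nearly the same. The gene pvalb2, also abundant, took a smaller share. The gene si:dkey-90l23.1 took 34823 to 62907 CPM at 0 µM (here by the library total alone) with a median of 45586, 66249 to 83309 with a median of 75033 at 1 µM, and 50320 to 90136 with a median of 72431 at 5 µM, so that all larvae at 1 µM lay above every control. The translation initiation factor gene eif1b had medians of 9283, 15049 and 14457, the mTOR inhibitor gene ddit4 of 6890, 11521 and 10805, and the replication licensing inhibitor gene gmnn of 4645, 7883 and 7802. Relative to si:dkey-90l23.1 the median ratio was 0.205, 0.202 and 0.206 for eif1b, 0.155, 0.159 and 0.158 for ddit4, and 0.105, 0.107 and 0.107 for gmnn. Single larvae varied more for ddit4, with ratios of 0.147 to 0.169 at 0 µM, 0.122 to 0.175 at 1 µM and 0.126 to 0.202 at 5 µM. The gene pvalb2 had medians of 27175, 18115 and 18292 CPM. The same ratio was 0.587, 0.243 and 0.245 for the muscle gene pvalb2 and 0.162, 0.0419 and 0.0436 for rpl38. After TMM scaling gmnn did not pass at either dose (0.40 ± 0.19 and 0.39 ± 0.19, edgeR adjusted p = 0.16 and 0.194). The linker histone gene h1m lay above every control in all 8 larvae at 1 µM, at 2354 to 2715 CPM against 1513 to 2235, and did not pass either (0.45 ± 0.17, edgeR adjusted p = 0.0804).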
